A study of Mus musculus with 10 samples.

Results

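The genes described here build, regulate and use microtubules: tubulins, nucleation complexes, kinesin and dynein motors, and the proteins of the cilium. They were taken from the probe annotation as every clone with a single gene symbol of the families Tuba to Tube, Tubgcp, Tekt, Kif, Klc, Dync, Dynl, Dnah, Dnai, Dnal, Dctn, Ift, Bbs, Map1, Mapre, Stmn, Haus and Tbca to Tbce. This gave 98 clones of 69 genes, among 15600 clones in all and 9866 clones with a single symbol. The Map1 family was represented by LC3 genes alone, and Tuba1b was the single alpha-tubulin.

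RNA came from M-1 cells, an established line from the mouse cortical collecting duct, at passages 34 to 36. The cells had been grown to confluence and kept in medium with hormone-depleted serum before treatment. Dexamethasone, a synthetic glucocorticoid, was given at 100 nM for 3 h, and control cells received medium without steroid for the same time. The dexamethasone group comprised 3 Cy5 channels, and the control group 2 Cy5 and 5 Cy3 channels, read on spotted cDNA arrays with 2 spots per clone. Each dexamethasone Cy5 channel was read against a control Cy3 channel on the same array, and the other 2 pairs held control RNA in both colours. Whether the replicates are separate cultures is not given in the labels, so p-values measure the spread between these channels, which may be technical. For 5 of the 7 control-titled channels the treatment text speaks of dexamethasone, and every direction below rests on the titles. Dye and treatment run together on the dexamethasone arrays, and a difference between those arrays and the control arrays cannot be told apart from the treatment.

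Microtubules are hollow polymers of alpha- and beta-tubulin that grow from gamma-tubulin complexes and carry motors. Kinesins mostly walk to the growing end and dyneins to the anchored end, and the same tracks form the mitotic spindle and the core of the cilium. Collecting duct principal cells bear a single non-motile primary cilium that senses flow and is built by intraflagellar transport, a train of Ift proteins moved by kinesin-II and dynein.

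The dexamethasone arrays carry values for 12.1% to 12.8% of the spots, those with outlying ratios, while the control pairs carry 99.2% and 99.4%. A spot with a value is called listed here, and it is listed higher or lower by the side of an empty band of ratios on which it lies. A clone that is not listed has no measured fold change. Centred log2 Cy5/Cy3 ratios of listed spots start at 0.29, 0.48 and 0.27 in size on dexamethasone arrays 1, 2 and 3. Their means can therefore be too large in size and their SDs too small. Median intensities ran from 355 to 880.5 in the dexamethasone Cy5 channels and, over both colours of the control pairs, from 327 to 1076. Of 23 collecting duct markers 10 had a named clone, and 7 of these, keratins 7, 8, 18 and 19 with Cldn7, Epcam and Gata3, had a clone brighter than the median clone of the control pairs. Of the rest, 2, Cdh1 and Cldn8, lay among the dimmest 25% of clones, and Slc4a1 lay between. The aquaporin and sodium channel markers had no named clone. All 3 leukocyte and endothelial markers measured lay among the dimmest 25% of clones. Of 12 markers of motile ciliated cells measured, 7 had a clone brighter than the median clone and 3 lay among the dimmest 25%. Of 9 fibroblast markers measured, 5 had a clone brighter than the median clone and 1 lay among the dimmest 25%. Counting each spot on each dexamethasone array as 1 place, fibroblast markers had 5 places listed higher and 3 lower. These are 5.95% and 3.57%, against 6.36% and 6.22% over all clones. Collecting duct markers had 6 places higher and 1 lower (6.67% and 1.11%).

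The promoters of 4 of the 5 members with a net of 3 or more of their 6 dexamethasone spots listed to one side are shown because the comparison turns on these genes. Each line gives the 250 bases before the RefSeq start in GRCm38.p6, 5′ to 3′ on the gene's strand, which is the minus strand for all 4. Capitals mark GTTGCC or its complement GGCAAC, a half-site of the RFX factors that act on cilium genes. Tekt2 lies at chr4:126325689-126325938, Kif1b at chr4:149307734-149307983, Tuba1b at chr15:98934391-98934640 and Haus4 at chr14:54554362-54554611.
Tekt2: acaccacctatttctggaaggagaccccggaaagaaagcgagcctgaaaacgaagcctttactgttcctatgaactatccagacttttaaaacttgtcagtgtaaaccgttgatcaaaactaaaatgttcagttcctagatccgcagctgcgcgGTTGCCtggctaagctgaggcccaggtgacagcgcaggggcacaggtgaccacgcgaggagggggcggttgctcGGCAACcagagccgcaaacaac
Kif1b: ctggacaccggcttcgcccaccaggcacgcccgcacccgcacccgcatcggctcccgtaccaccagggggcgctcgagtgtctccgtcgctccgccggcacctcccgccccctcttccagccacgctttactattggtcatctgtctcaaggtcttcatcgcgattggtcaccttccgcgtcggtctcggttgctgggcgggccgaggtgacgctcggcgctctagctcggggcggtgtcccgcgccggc
Tuba1b: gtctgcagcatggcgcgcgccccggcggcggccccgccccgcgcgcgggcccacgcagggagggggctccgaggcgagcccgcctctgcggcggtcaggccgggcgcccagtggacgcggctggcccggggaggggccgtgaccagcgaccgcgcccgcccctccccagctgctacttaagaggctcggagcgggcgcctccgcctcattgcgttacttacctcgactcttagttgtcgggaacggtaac
Haus4: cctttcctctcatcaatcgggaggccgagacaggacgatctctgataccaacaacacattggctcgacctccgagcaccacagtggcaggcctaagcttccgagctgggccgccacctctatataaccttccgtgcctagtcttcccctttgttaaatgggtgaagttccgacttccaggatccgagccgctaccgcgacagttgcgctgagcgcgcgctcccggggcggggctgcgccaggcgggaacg

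The Tekt2 window holds GTTGCC starting 96 bases before the start, and its complement starting 22 bases before it. The table holds 3 promoters for Tekt2 and 2 for Kif1b, and the one farthest upstream is shown. At least 1 match, on either strand, was present for 14 of the 56 members with a promoter in the table (25%), against 11.8% of 27025 genes. Among the cilium members it was 6 of 19 (31.6%), Tekt2, Ift27, Bbs7, Kif3a, Kif9 and Kif24, and among the other members 8 of 37 (21.6%). At least 2 matches were found for Tekt2 alone among the members, and for 0.862% of all genes. AGAACA, the half-site of the glucocorticoid receptor, was found on either strand for 6 members, Dync1i2, Haus5, Ift74, Kif23, Klc4 and Tbcb (10.7%), against 18.2% of all genes. It was in none of the 4 windows printed, which says only that these letters are not there. With AGAACA absent, the motifs do not overlap in these windows, and a match is not a binding site.

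The comparison of dexamethasone with control pairs asks which of these transcripts the hormone alters early. Tekt2, a tektin of the axoneme of motile cilia and flagella, had the highest ratio of any member. Its centred log2 ratios were 2.07, 1.33 and 1.60 in the dexamethasone pairs against -0.06 and 0.17 in the control pairs. All 3 dexamethasone values lay above both control values, with means of 1.67 ± 0.38 in the dexamethasone pairs (SD, n = 3) and 0.05 in the control pairs (n = 2). All 6 spots were listed higher, in 1 of 98 members (1.02%) against 0.0256% of all clones. Haus4, a subunit of the augmin complex that branches spindle microtubules, lay on the other side, at -0.75, -0.76 and -0.59 in the dexamethasone pairs against 0.30 and -0.29 in the control pairs. Its means were -0.70 ± 0.09 in the dexamethasone pairs (SD, n = 3) and 0.01 in the control pairs (n = 2), and all 3 dexamethasone values lay below both control values.

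These were the 2 members valued in all 5 pairs, where limma could be fitted over 213 clones. The treated minus control difference was 1.61 with a standard error of 0.29 for Tekt2 and -0.71 with a standard error of 0.26 for Haus4. Both had a limma adjusted p of 0.209, so neither passed 0.05, and both had an unadjusted p under 0.05, as did 22.5% of the 213 clones. Of the 213 clones, 0% were called higher and 0.469% lower. Non-overlap of the groups was common under this listing, with 20.7% of the 213 clones wholly above and 23% wholly below the control pairs.

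**Figure D1:**
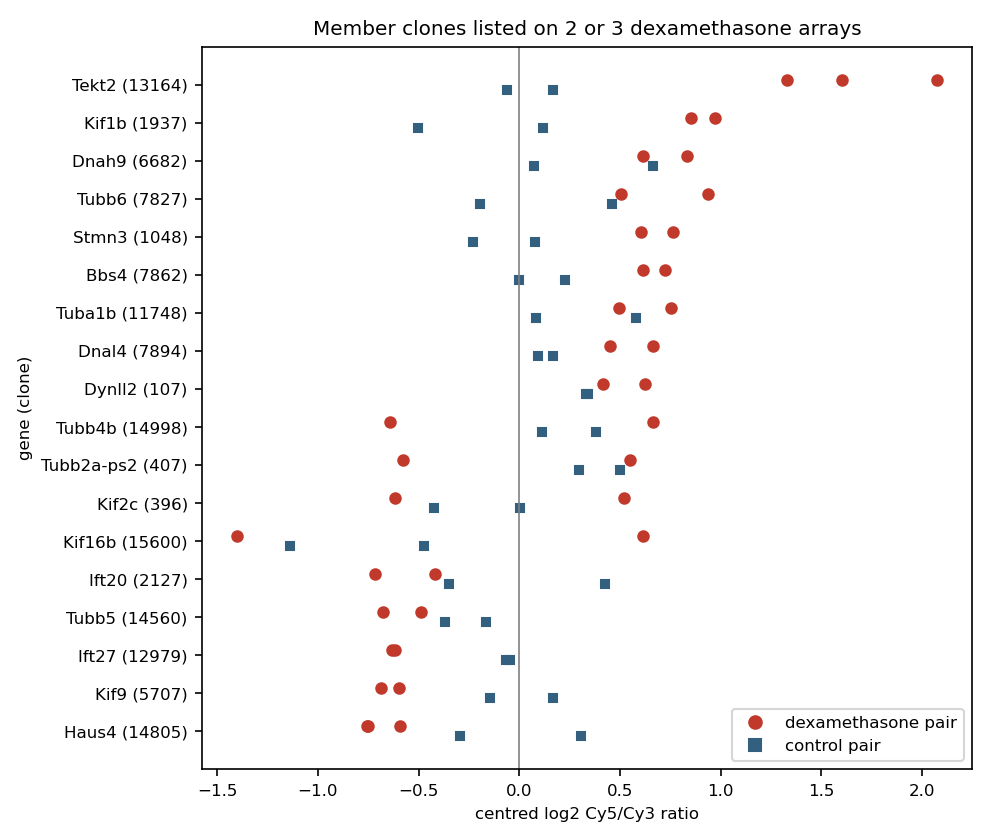
Centred log2 Cy5/Cy3 ratio (horizontal axis) of the 18 member clones listed on 2 or 3 dexamethasone arrays. Circles are dexamethasone pairs and squares control pairs, 1 point per pair, and Tekt2 at the top lies between 1.33 and 2.07 against -0.06 and 0.17.

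The 2 Tekt2 spots read 2079 and 1600, 997 and 842, and 2759 and 2652 in the dexamethasone Cy5 channels of arrays 1 to 3. The control Cy3 channels of the same arrays read 420 and 449, 438 and 388, and 881 and 882. In each array the dexamethasone channel was brighter at both spots. In the control pairs the Cy5 spots read 364 and 357 in pair 1 and 1554 and 1956 in pair 2, and the Cy3 spots 542 and 530, then 1436 and 1715. Here Cy5 was the dimmer colour in pair 1 and the brighter in pair 2. Median intensities of the whole channels ran the same way, at 327 in Cy5 and 488 in Cy3 in pair 1, and 1076 and 867 in pair 2. After centring, the Tekt2 ratios of these pairs were -0.06 and 0.17.

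To place channels of different arrays on 1 scale, each channel's log2 intensity was taken relative to its median over the 213 clones. On this scale the Tekt2 signal of the dexamethasone arrays exceeded that of the control arrays by 1.19 in Cy5 and by -0.60 in Cy3. With the Cy5 channels alone the limma difference was 1.19 (standard error 0.50, adjusted p = 0.304). On this scale Tekt2 stood at 2.26, 0.99 and 1.73 in Cy5 on dexamethasone arrays 1 to 3, against 0.21 and 0.73 in the control pairs. In control Cy3 it stood at 0.08, -0.43 and 0.16 on those arrays, against 0.20 and 0.88 in the control pairs. The Tekt2 ratio thus combined, on average, a higher Cy5 signal with a lower control Cy3 signal, and control pair 2 had the highest Cy3 value. For Haus4 the dexamethasone arrays exceeded the control arrays by -0.63 in Cy5 and 0.14 in Cy3. Each dexamethasone array listed 1 Haus4 spot, at 395, 144 and 869 in Cy5 and 688, 371 and 1258 in control Cy3, and array 2 listed the other spot of the clone than arrays 1 and 3.

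**Figure D2:**
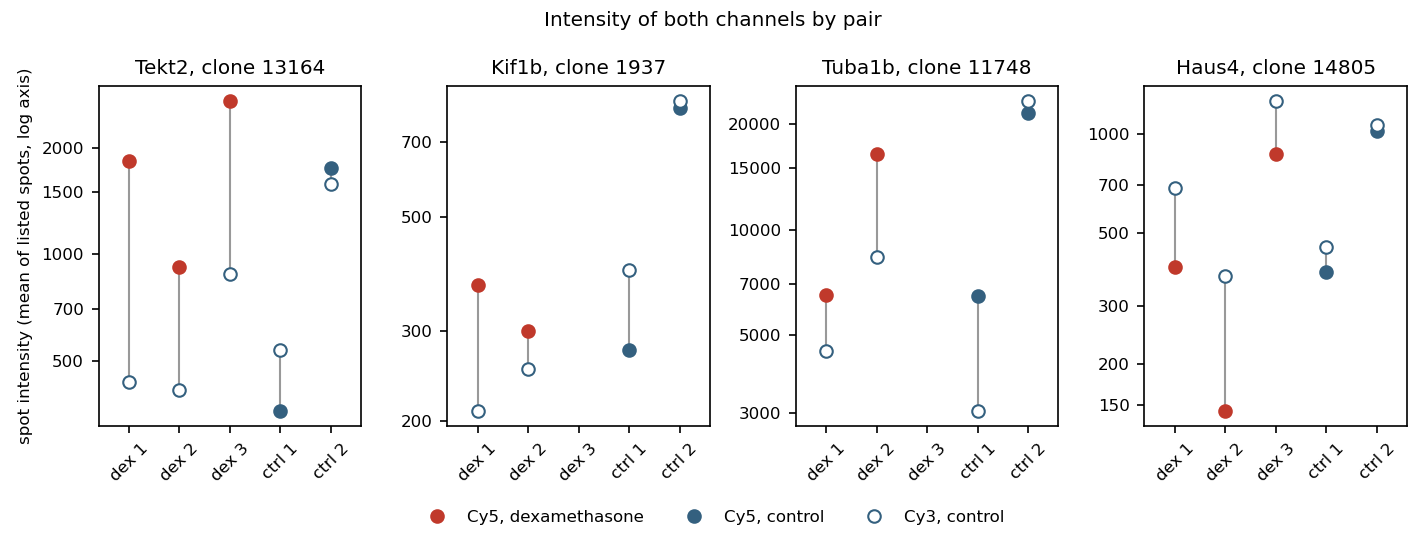
Spot intensity on a log axis (mean of the listed spots, scale set per panel) for Tekt2, Kif1b, Tuba1b and Haus4 in each pair, with grey lines joining the channels of a pair. Filled circles are Cy5 (red for dexamethasone, blue for control), open circles control Cy3, and Tekt2 shows Cy5 above Cy3 in all 3 dexamethasone pairs.

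Over all 98 clones, 51 were listed on at least 1 dexamethasone array (52%, against 51.8% of all clones), 18 on at least 2 (18.4%, against 13.7%) and 2 on all 3 (2.04%, against 1.38%). Clones listed on the higher side alone numbered 27 (27.6%, against 23.5% of all clones) and on the lower side alone 19 (19.4%, against 22.4%). Counting each spot on each array as 1 place, 54 of 588 places were listed higher (9.18%, against 6.36% over all clones) and 34 lower (5.78%, against 6.22%). The higher count leaned on array 2, with 26 higher and 11 lower (13.3% and 5.61% of member spots, against 6.17% and 6.63% of all spots). Array 1 had 16 higher and 8 lower (8.16% and 4.08%, against 6.38% and 5.73%). Array 3 had 12 higher and 15 lower (6.12% and 7.65%, against 6.53% and 6.3%). Without array 2 the members had 28 higher and 23 lower, against 4028 and 3752 over all clones. Without array 3 the members had 42 higher and 19 lower, against 3917 and 3855. A net of 3 or more spots listed higher was reached by 4 clones, Tekt2, Tuba1b, Kif1b and Tubb6 (4.08%, against 1.27%), and a net of 3 or more listed lower by Haus4 (1.02%, against 1.33%).

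**Figure D3:**
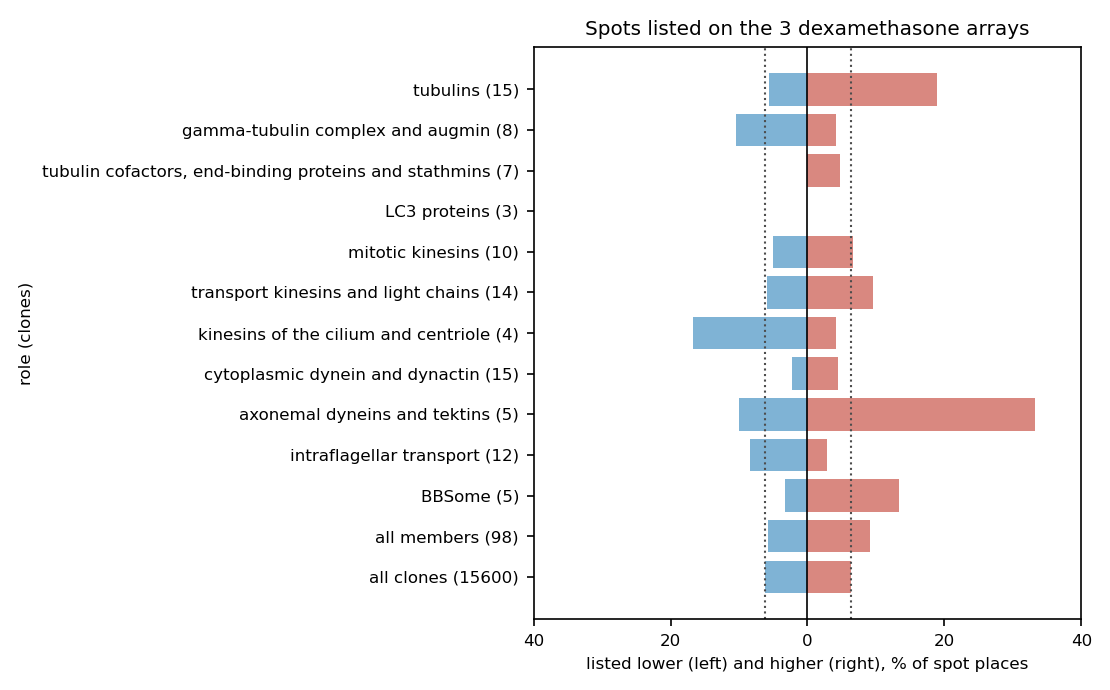
Percent of spot places listed lower (left) and higher (right) on the 3 dexamethasone arrays, by role of the members with the number of clones in brackets, then for all members and all clones (dotted lines). Tubulins stand at 18.9% higher and 5.56% lower, all clones at 6.36% and 6.22%.

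Tubulins, the subunits of the polymer itself, had 17 places listed higher and 5 lower over 15 clones of 7 genes (18.9% and 5.56%, against 6.36% and 6.22% over all clones). Array 2 held 12 of the 17, or 40% of the tubulin spots on that array, against 6.17% of all spots. Without it 5 were higher and 3 lower, against 4028 and 3752 over all clones. Tubulins had 10% higher and 0% lower on array 1, against 6.38% and 5.73% of all spots. On array 3 they had 6.67% and 10%, against 6.53% and 6.3%. Coding sequences of tubulin genes are known to be alike, and binding of one tubulin's RNA to another's spot was not tested.

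Tuba1b, an alpha-tubulin expressed in most cells, had both spots listed higher on 2 arrays, at 0.50 and 0.75 in the dexamethasone pairs against 0.58 and 0.08 in the control pairs. Its Cy5 spots read 7148 and 5863, then 15427 and 17411 in the dexamethasone channels, against 4922 and 4113, then 8494 and 8249 in the control Cy3 channels beside them. In control pair 1 Cy5 also exceeded Cy3, at 6685 and 6261 against 3175 and 2911, while in pair 2 it read 20962 and 21925 against 23920 and 22492. The groups overlapped, and the control ratio of pair 1 was larger than the dexamethasone ratio of array 1. Its signal on the dexamethasone arrays exceeded that of the control arrays by 0.26 in Cy5 and by -0.05 in Cy3 (log2).

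Tubb6, a beta-tubulin, had 3 spots listed higher, at 0.94 and 0.50 in the dexamethasone pairs of arrays 2 and 3 against -0.20 and 0.46 in the control pairs. Both dexamethasone values lay above both control values, the lower by a margin smaller than the distance between the control pairs. Its excess over the control arrays was 0.72 in Cy5 and 0.07 in Cy3. In Cy5, arrays 2 and 3 stood at 3.26 and 2.87 on the scale common to the arrays, the second from 1 spot, against 1.85 and 2.85 in the control pairs. Tubb2b, a neuronal beta-tubulin, had both spots listed higher on array 2 alone, at 0.79 against 0.43 and 0.32 in the control pairs. Tubb4b had 3 clones, all listed higher on array 2 at 0.72, 0.66 and 0.83, and clone 14998 was listed lower at both spots on array 3, at -0.64.

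Tubb5, the main beta-tubulin of dividing cells, was spotted as 7 clones. Clone 6441 was listed higher at both spots on array 2, at 0.66, and clone 6541 at 1 spot on array 1, at 0.40. Clone 14560 was listed lower at 1 spot each on arrays 2 and 3, at -0.68 and -0.49, and 4 clones were not listed. Clones of this gene thus lay on both sides of the band, even on the same array. The pseudogene Tubb2a-ps2 had 1 spot lower on array 2 and 1 higher on array 3, and Tubb3, a neuronal beta-tubulin, was not listed.

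**Figure D4:**
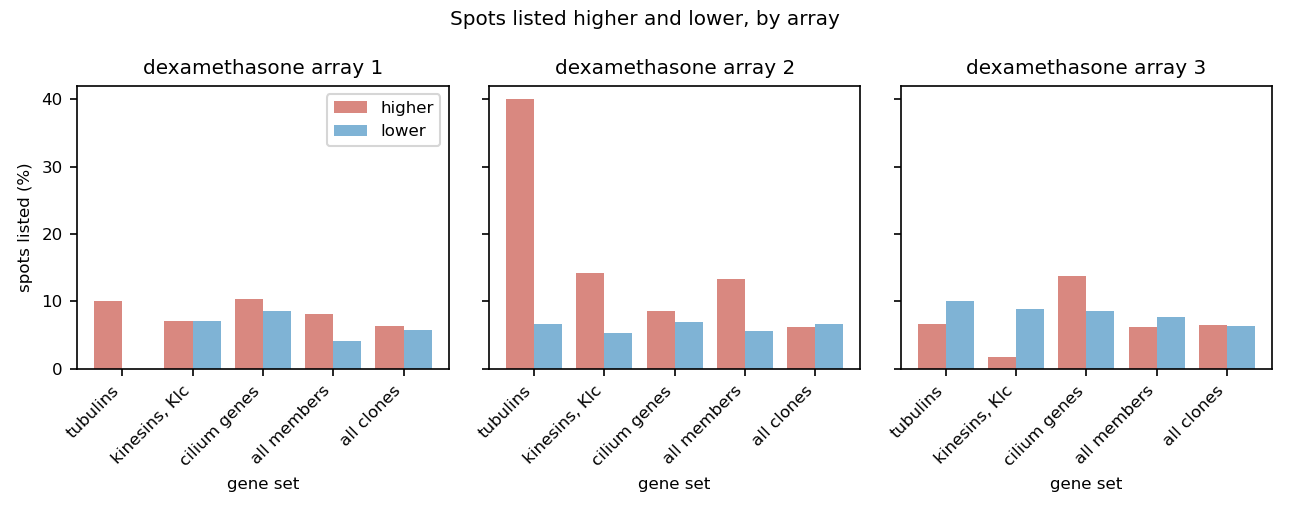
Percent of spots listed higher and lower on each dexamethasone array for tubulins, kinesins with kinesin light chains, cilium genes, all members and all clones. On array 2 tubulins reach 40% higher, while on array 3 they stand at 6.67% higher and 10% lower.

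Genes that start new microtubules, the gamma-tubulin complex and augmin, had 2 places listed higher and 5 lower over 8 clones (4.17% and 10.4%, against 6.36% and 6.22% over all clones). Haus4 held 3 of the lower ones. The augmin subunit Haus2 was listed higher on array 1 at 0.85 in the dexamethasone pair against -0.17 and 0.19 in the control pairs, among the dimmest 25% of clones. Haus3 was listed lower on array 3 at -0.54 and Haus8 on array 2 at -0.61, while Haus5 and Haus6 were not listed. Subunits of this complex were thus listed on both sides. Tubgcp2 of the gamma-tubulin complex was listed higher on array 2 at 0.64, and Tubgcp5 was not listed.

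Genes that fold tubulin or set the growth of microtubules had 2 places listed higher and 0 lower (4.76% and 0%, against 6.36% and 6.22% over all clones), and 6 of 7 clones were not listed. Stmn3, a stathmin that binds free tubulin, was listed higher on arrays 1 and 2 at 0.76 and 0.60 in the dexamethasone pairs, against -0.23 and 0.08 in the control pairs, with 1 spot on each array. The groups did not overlap. Stmn1, the folding cofactors Tbcb and Tbcd and all 3 clones of Mapre1, a protein that tracks growing ends, were not listed. The 3 clones of Map1lc3a and Map1lc3b, which code for LC3 proteins of autophagy, were not listed either.

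Kinesins that act in mitosis had 4 places higher and 3 lower over 10 clones (6.67% and 5%), near the 6.36% and 6.22% over all clones. Kif23, the motor of the central spindle, was listed higher at 2 of its 3 clones on array 2, at 0.74 and 0.58, and the motor Kif11, which separates spindle poles, at 0.63 on the same array. Without array 2 the mitotic kinesins had 1 place higher and 2 lower, against 4028 and 3752 over all clones. Kif18a, among the dimmest 25% of clones, was listed lower at both spots on array 1, at -0.66, and Kif2c lay on either side on arrays 2 and 3, at -0.62 and 0.52. Kif14, Kif2a, both clones of Kif22 and the third clone of Kif23 were not listed.

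Transport kinesins and kinesin light chains had 8 places listed higher and 5 lower over 14 clones (9.52% and 5.95%, against 6.36% and 6.22% over all clones). Among them Kif1b, which carries mitochondria and vesicles, had the highest mean ratio after Tekt2, at 0.97 and 0.85 in the dexamethasone pairs of arrays 1 and 2 against 0.12 and -0.50 in the control pairs. Its 3 listed spots read 368, 320 and 279 in dexamethasone Cy5 and 209, 259 and 246 in the control Cy3 beside them. The control pairs read 283 and 266, then 688 and 945 in Cy5, and 393 and 396, then 910 and 774 in Cy3. On the scale common to the arrays, Kif1b differed from the control arrays by -0.05 in Cy5 and by -0.92 in Cy3. The control Cy3 channel thus held nearly all of the Kif1b difference on this scale. Kif3b, a subunit of kinesin-II, was listed higher at both spots on array 2, at 0.81 against -0.37 and 0.01, while its partner Kif3a was not listed at either clone.

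The other transport motors were listed on both sides. Klc1 was listed lower at both spots on array 3, at -0.41, Klc4 higher on array 2, at 0.53, and Kif26a lower on array 3, at -0.87. The 3 clones of Kif5b, the conventional kinesin heavy chain, were not listed, nor were Kif1c and Kif28. Kif16b, an endosome motor, had clone 15600 at 0.62 and -1.40 on arrays 1 and 2 and clone 9529, among the dimmest 25%, at -0.83 on array 3. For clone 15600 the control pairs stood at -0.47 and -1.14, and its ratio was thus low with control RNA in both channels.

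Cytoplasmic dynein, the motor towards the anchored end, and its cofactor dynactin had 4 places listed higher and 2 lower over 15 clones (4.44% and 2.22%), against 6.36% and 6.22% over all clones. Dynll2, a light chain, was listed higher on arrays 1 and 3 at 0.63 and 0.41 in the dexamethasone pairs, against 0.33 and 0.34 in the control pairs. Both dexamethasone values lay above both control values. The heavy chain Dync1h1 was listed higher on array 2 at 0.58, the intermediate chain Dync1i2 lower on array 2 at -1.28 with 1 of its 2 clones, and the light intermediate chain Dync1li1 lower on array 3 at -0.47 against -0.71 and -0.32 in the control pairs. Dynlrb2, a roadblock light chain, was listed higher on array 1 at 0.69. Dync1li2, Dynll1, Dynlrb1, Dynlt3, Dctn5 and Dctn6 were not listed.

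Genes of the motile axoneme had 10 places listed higher and 3 lower over 5 clones (33.3% and 10%, against 6.36% and 6.22% over all clones), and Tekt2 held 6 of the 10. Dnah9, an outer-arm dynein heavy chain, had clone 6682 listed higher on arrays 2 and 3 at 0.83 and 0.61 in the dexamethasone pairs against 0.07 and 0.66 in the control pairs, and clone 11544 lower at both spots on array 3, at -0.68. Dnah5, another heavy chain of the outer arm, was listed lower on array 2 at -0.71, and the light chain Dnal4 higher on arrays 1 and 3 at 0.66 and 0.45. Dnah5 and Dnal4 lay among the dimmest 25% of clones. The axonemal genes other than Tekt2 thus had 4 places higher and 3 lower.

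Genes of intraflagellar transport had 2 places higher and 6 lower over 12 clones of 8 genes (2.78% and 8.33%, against 6.36% and 6.22% over all clones). Ift27, a small GTPase of the train, was listed lower on arrays 1 and 2 at -0.62 and -0.63 in the dexamethasone pairs against -0.06 and -0.05 in the control pairs, with 1 spot on each array. These groups did not overlap. Clone 2127 of Ift20, which leaves the Golgi for the cilium, was listed lower on arrays 2 and 3 at -0.72 and -0.42 against -0.35 and 0.43, and the other Ift20 clone was not listed. Ift46 was listed higher on array 3 at 0.51, Ift122 lower on array 3 at -0.52 for 1 of 2 clones, and Ift74 had 1 spot on either side on array 1. Ift52, Ift81 and Ift88 were not listed.

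The BBSome, a coat complex that moves receptors in cilia, had 4 places higher and 1 lower over 5 clones (13.3% and 3.33%, against 6.36% and 6.22% over all clones). Bbs1 and both Bbs4 clones lay among the dimmest 25% of clones. Bbs1 was listed higher on array 3 at 0.54 and Bbs2 on the same array at 0.83. Bbs4 had clone 7862 listed higher on arrays 1 and 3 at 0.73 and 0.61 in the dexamethasone pairs, against 0.23 and 0.00 in the control pairs, and clone 1735 listed lower on array 1 at -0.58. Bbs7 was not listed. Kinesins of the cilium and centriole had 1 place higher and 4 lower over 4 clones (4.17% and 16.7%, against 6.36% and 6.22%), and all 4 clones lay among the dimmest 25%. Kif9, a kinesin of the motile cilium, had clone 10394 listed higher on array 1 at 0.71 and clone 5707 lower on arrays 2 and 3 at -0.60 and -0.69. Kif7, the ciliary kinesin of hedgehog signalling, and Kif24, a centriolar kinesin, were listed lower on array 1 at -0.68 and -0.76.

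Repeated clones of a gene bear on how far a listed value can be read as the gene's own. Tekt2, Haus4, Tuba1b, Kif1b and Tubb6 each had a single clone, so clones could not be compared for them. Of 20 genes with 2 or more clones, 9 had no clone listed. In 7 genes at least 2 clones were listed with a net direction, and in 5 of these, Bbs4, Dnah9, Kif16b, Kif9 and Tubb5, the clones lay on different sides. Kif23 and Tubb4b were the 2 whose clones with a net direction lay on the same side, in each case through array 2. The third Tubb4b clone, 14998, had 2 spots listed higher and 2 lower, and the third Kif23 clone was not listed. Of 71 clone and array places with a listed spot, 17 had both spots listed (23.9%, against 12.8% over all clones). Tubulins gave 7 of these places and Tekt2 gave 3.

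A limma fit on the 8056 clones listed on any dexamethasone array held 51 members and called 0 higher and 0 lower, against 0% and 0.0124% of all clones. Without adjustment, 8 members passed 0.05 on the higher side and 7 on the lower side (29.4%, against 32.3% of all clones). The median difference was 0.36 for the members and 0.06 for all clones, over values chosen by the listing for their size. Behind Tekt2 the difference was 1.10 for Kif1b (standard error 0.28), -1.23 for Dync1i2 (0.29), 0.76 for Stmn3 (0.23) and 0.99 for Kif3b (0.32), each with a limma adjusted p of 0.145. Of the 51 members, 33 rest on 1 dexamethasone array, Dync1i2 and Kif3b among them, and these are assumed to vary like the other clones. The Dync1i2 value rests on 1 spot, which had ratios of 0.05 and -0.50 in control pairs 1 and 2.

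For the 18 clones listed on 2 or 3 arrays, the dexamethasone values lay wholly above the control pairs in 7 (38.9%, against 28.5% of such clones) and wholly below in 5 (27.8%, against 27.5%). The 7 were Tekt2, Kif1b, Tubb6, Stmn3, Bbs4 clone 7862, Dnal4 and Dynll2. The 5 were Haus4, Kif9 clone 5707, Ift27, Ift20 clone 2127 and Tubb5 clone 14560. The other 6 overlapped the control pairs.

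In the control pairs, where both channels hold control RNA and all 98 clones are valued, the mean ratio of a member ran from -0.81 to 0.40 with a median of 0.02. Its SD over clones was 0.217, as over all clones. The control ratios of a clone had the same sign in both pairs for 48 of 98 members (49%, against 55.2% of all clones). Tested against 0 with limma over 15561 clones, 0 members were higher in Cy5 and 1 was lower, against 0.0321% and 0.289% of all clones. Without adjustment, 2 members passed 0.05 as higher and 6 as lower (8.16%, against 8.68% of all clones). The member called lower was Kif16b clone 15600, at -0.81 (standard error 0.19, limma adjusted p = 0.0185, lower in 2 of 2 pairs), and with median centring it did not pass. All 98 members had this same standard error, so the p-value rests on a spread pooled over clones and not on that of this clone. Its ratios were -0.47 and -1.14, the second from 1 spot. Tubulins had a median control ratio of 0.09 and cytoplasmic dynein genes of 0.01.

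Members listed higher on balance often had a positive control ratio too, in 19 of 28 clones (67.9%, against 56.3% of all clones so listed). For those listed lower, the control ratio was negative in 10 of 19 (52.6%, against 56.6%). Of the members listed higher, Tuba1b and Tubb2b had control means of 0.33 and 0.38, and Tekt2 of 0.05. How much of the listed ratios comes from the dye was not tested.

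**Figure D5:**
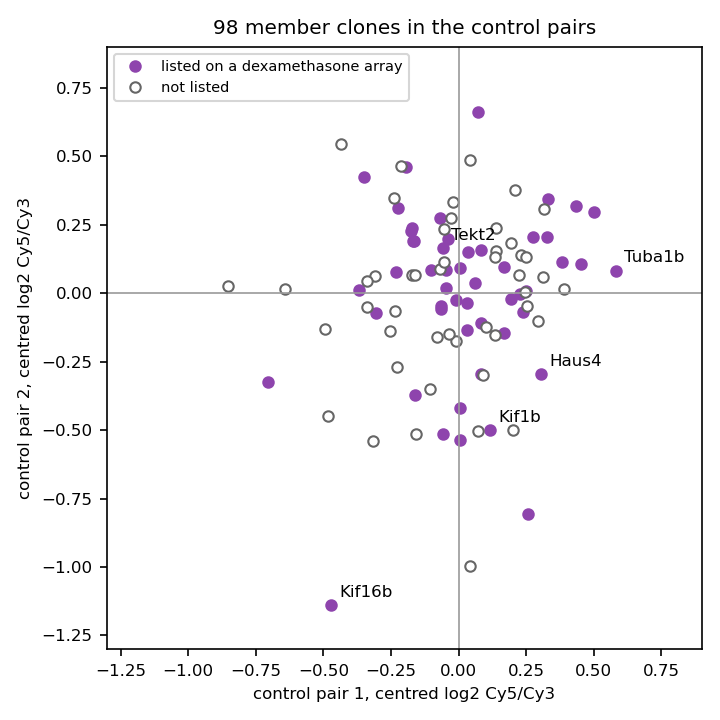
Centred log2 Cy5/Cy3 ratio of the 98 member clones in control pair 1 (horizontal axis) and control pair 2 (vertical axis), filled where the clone was listed on a dexamethasone array. Kif16b lies lowest in pair 2, at -0.47 and -1.14, and Tekt2 lies near 0 in both pairs.

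Other genes of the microtubule system outside these families, such as plus-end trackers, centrosome proteins and the chaperonin that folds tubulin, had 33 places listed higher and 21 lower over 92 clones of 59 genes (5.98% and 3.8%, against 6.36% and 6.22% over all clones). Of these 0 clones reached a net of 3 spots higher and 1 a net of 3 lower, Clip1, a plus-end tracker, at -0.59 and -0.47 in the dexamethasone pairs against 0.29 and -0.08 in the control pairs. The 92 clones include Mtap, an enzyme of methionine salvage and not of the microtubule system, with 1 of the 33 higher places. Genes that mark motile ciliated cells, measured because Tekt2 belongs to the motile axoneme, had 5 places higher and 6 lower over 14 clones of 12 genes (5.95% and 7.14%), near the 6.36% and 6.22% over all clones. Ccdc39, an axonemal ruler protein, was listed higher on arrays 1 and 3 at 0.72 and 1.12 in the dexamethasone pairs against -0.29 and 0.15 in the control pairs. Ak8, an adenylate kinase, was listed lower on all 3 arrays at -0.55, -0.58 and -0.80 against -0.29 and 0.27. Foxj1, the factor that directs motile ciliogenesis, had no named clone.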

How the data were processed

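Spots were quantified as mean intensities in Imagene 4.0 from ScanArray 5000 images, per the series' design text. The deposited values are whole-number spot intensities, 1 column per channel. Not given in the sources used here are any background correction, any normalisation and the rule by which spots are missing from the dexamethasone arrays. Array numbers in the titles pair the channels of dexamethasone arrays, and title numbers pair the control channels. Blank spots were identical in both channels of every pair (178 and 258 in the control pairs).

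For control pairs, a lowess curve of log2 Cy5/Cy3 along mean log2 intensity was subtracted (statsmodels 0.14.6, span 0.2). Ratios of dexamethasone arrays were centred on the midpoint of the empty band in windows of 150 spots, smoothed with span 0.3, because the middle ratios are missing. Listed spots of a clone were averaged. limma 3.58.1 (R 4.3.3) compared the 3 dexamethasone with the 2 control pairs, with Benjamini-Hochberg adjustment over all clones fitted and a threshold of 0.05. The centring and limma steps were tested on simulated data in which the spots with the largest true ratios were listed. That rule was assumed, so the simulation does not cover a listing made by another rule. No other chance test was run, and the number of arrays limits the precision.

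Members, roles, lists and tests were chosen with earlier results of these data known. Clones named are Tekt2, Tuba1b and Haus4, those valued in all 5 pairs, those with a net of 3 or more spots one way, the most often listed clone of each other role, those past the threshold in the control pairs, and genes with 3 or more clones. Other members named were added after their values were seen, so that every listed clone is accounted for. Gene names come from the platform annotation, which can be old, in which 19732 spots have 1 symbol, 548 several and 10920 are unnamed here. All 69 member genes matched a RefSeq gene by identifier, and 56 had a promoter in the RefSeq table (GRCm38.p6).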

Additional observations from a re-analysis of the deposited data

How the results depend on the processing

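The 0 members called higher and 0 called lower by limma stayed 0 under every alternative run. These fits held only 2 members, Tekt2 and Haus4, except the fit on clones listed on any array, which held 51. The alternatives were median centring, lowess on every array, no normalisation, 50 added and dim clones left out. The others were clones listed on any array, Cy5 alone, a threshold of 0.1, each pair left out, and no replicate block (10 channels fitted separately). Tekt2 kept a positive difference, from 1.19 with Cy5 alone to 1.82 with no normalisation, and 1.80 with no replicate block, with limma adjusted p from 0.119 to 0.994. Haus4 kept a negative one, from -1.005 without control pair 2 to -0.41 without control pair 1, and -0.77 with no replicate block, with limma adjusted p from 0.145 to 0.994. Median centring put the median difference of all 213 clones at -0.25, against -0.03 with band-midpoint centring. The 54 places listed higher became 28 to 42 with 1 dexamethasone array left out, lowest without array 2, and the 34 listed lower became 19 to 26, lowest without array 3. They were 53 and 35 with median centring, 44 and 24 with 1 clone per gene, and 47 and 25 without dim clones. Leaving an array out removes its places by construction. The dye effect of Kif16b in the control pairs went to 0 called with median centring, which does not follow the ratio along intensity, and the cause was not tested. The listing limits these data: 47 of 98 clones have no value on any dexamethasone array, and 54 of the 71 valued clone and array places rest on 1 spot.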
